A study of Homo sapiens with 12 samples.

Results

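The genes described here are 33 genes of the integrated stress response, made up of the transcription factor ATF4, its partner and downstream factors, and the enzymes, transporters and stress regulators it induces. They were chosen by symbol from a list of ATF4-linked genes, with no measured value in the rule. Earlier results of these data were, however, known when these genes, the further lists below and the tests were chosen. All 33 were found among the 33694 human genes listed in the files. RNA came from A375, an established human melanoma line that carries an activating BRAF mutation, and from A375-BIR, which the labels name as its BRAF-inhibitor-resistant counterpart. How the resistant line was derived, and whether it is 1 clone, is not given in the sources used here. All cells grew in RPMI with 10% serum. A375 and A375-BIR were each given the BRAF kinase inhibitor dabrafenib (200 nM) or its solvent DMSO (0.1%), and the labelled treatment time was 48 h. The labels give 3 biological replicates in each of the 4 groups, sequenced as 3′ tag libraries, which count reads near the polyadenylated end of a transcript. The files of A375 DMSO replicates 2 and 3 list mouse genes and entered no comparison, so A375 with DMSO stands on 1 library.

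In the integrated stress response, kinases that sense amino acid shortage, unfolded protein in the endoplasmic reticulum, viral RNA or haem shortage phosphorylate the translation factor eIF2. Most translation slows, while the ATF4 messenger is translated more efficiently through upstream reading frames, so that ATF4 protein can rise with or without its RNA. ATF4 then binds C/EBP-ATF response elements, often with C/EBP partners, and raises genes for amino acid uptake, amino acid and one-carbon synthesis, tRNA charging and, under lasting stress, cell death. The libraries measured RNA and not eIF2 phosphorylation or ATF4 protein.

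Gene counts per human library ranged from 198690 to 1999840. Levels are given in CPM, the gene's share of the scaled library total. In the shallowest library, A375 dabrafenib replicate 3, 3 counts of its raw total are worth 15.1 CPM. The A375 DMSO library carries a different run stamp from the other 9 human libraries. What the stamp marks is not given in the sources used here. In comparisons with that library the stamp cannot be told apart from the group. Its mitochondrially encoded share was 15.1%, against 10.7% to 15.1% in A375 with dabrafenib and 4.63% to 7.21% in A375-BIR. The part of the run stamp or of this share in the results was not tested. The melanocyte lineage factor SOX10 stood at 471 CPM in A375 with DMSO and 41.1 ± 8.48 CPM in A375-BIR with DMSO. Of the other 8 melanocyte markers listed, DCT held 2669, PRAME 1884, MITF 1741, S100B 207, TYR 90, PMEL 39, TYRP1 5 and MLANA 1 count in all libraries together. The 6 tested markers of the 9 had a median log2 difference of -3.61 (-7.53 to -0.46) in A375-BIR against A375 with dabrafenib. Over all genes that median was 0.043. Of 18 markers of fibroblasts, leukocytes, endothelium and epithelium, CD68 held 211 counts over the 10 libraries and no other held over 38, and EPCAM, KRT5, CD3E, CDH5 and VWF were at 0. In bulk RNA fewer cells of a type and less RNA per cell cannot be told apart.

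A gene was called changed at an adjusted p under 0.05 in edgeR's quasi-likelihood test, with the Benjamini-Hochberg adjustment over all 10236 genes tested. Log2 differences carry an approximate standard error. Of the 33 genes, 31 passed the filter on low counts. Cystathionine gamma-lyase, CTH, with 44 counts in all, and cystathionine beta-synthase, CBS, with 0, did not pass. CBS has a near-identical copy in the human reference, so its count is uncertain. Of the 31, 2 were called in no comparison, SLC38A2 and XPOT, and 0 in all 5.

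**Figure D1:**
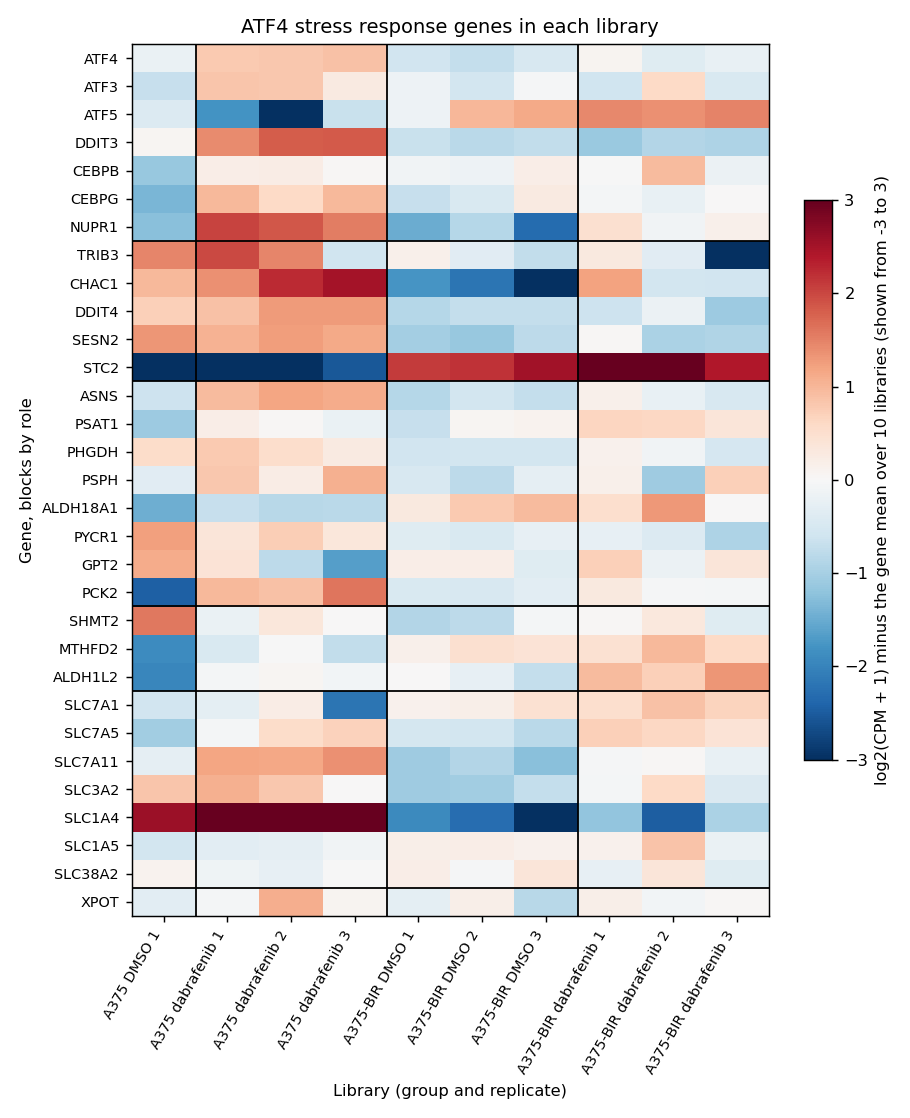
Level of the 31 tested genes (rows, in blocks by role) in each of the 10 human libraries (columns), as log2(CPM + 1) minus the gene's mean over the libraries, red for above and blue for below. STC2 is blue in all A375 libraries and red in all A375-BIR libraries, and SLC1A4 shows the opposite split, while NUPR1, SLC7A5, SLC7A11 and ALDH1L2 shift towards red with dabrafenib within each line.

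The first comparison set A375-BIR with dabrafenib against A375-BIR with DMSO, 3 libraries each, all with the same run stamp. In the resistant line 3 of 7 amino acid transporters, 2 of 5 stress regulators (0 by DESeq2), NUPR1 and ALDH1L2 rose. The gene for ATF4 itself was not called, nor was the death-linked factor DDIT3. Of the 31 tested genes 7 were called higher (22.6%) and 0 lower, against 1.36% called higher and 1.10% lower among all genes tested (2.46% in either direction). The unadjusted p was under 0.05 for 16 higher and 0 lower, and DESeq2 called 5 higher and 0 lower. The median log2 difference of the 31 was 0.49, against 0.018 over all genes. The number called higher was 12 when dabrafenib replicate 2 was left out, and 4 when either dabrafenib replicate 1 or DMSO replicate 1 was.

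Among the transcription factors, ATF4 (chromosome 22, 39519695 to 39522685, GRCh38 as are all positions below) stood at 489, 443 and 528 CPM in the DMSO libraries and at 770.2, 569 and 629 CPM with dabrafenib. The lowest treated library lay above the highest control, but the difference of 0.44 ± 0.17 was not called (adjusted p = 0.185); without dabrafenib replicate 2 it was called at 0.54. NUPR1 (chromosome 16, 28532708 to 28539174), a small stress-induced chromatin protein, went from 6.78, 11.1 and 3.39 to 29.5, 19.2 and 23.3 CPM. Its groups did not overlap, and it rose by 1.71 ± 0.38 on the log2 scale (adjusted p = 0.00699). The DMSO values rest on 8, 11 and 2 counts, and leaving out dabrafenib replicate 1, or either of DMSO replicates 1 and 3, ended the call (1.44 to 1.60). DDIT3, which encodes the death-linked factor CHOP, held 65.2, 59.5 and 62.6 CPM with DMSO and 47.6, 55.98 and 54.3 CPM with dabrafenib. All of its treated libraries lay below the controls, with an uncalled difference of -0.27 ± 0.22. The other 4 factors were not called: ATF3, a stress-induced repressor, at 0.16 ± 0.26, ATF5, a factor of the mitochondrial stress response, at 0.78 ± 0.35, and the ATF4 partners CEBPB and CEBPG at 0.38 ± 0.21 and 0.24 ± 0.30. ATF3 and CEBPB each had 1 high treated library, dabrafenib replicate 2, at 39.98, 92.7 and 43.99 and 99.01, 192 and 87.99 CPM in replicates 1, 2 and 3.

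Of 5 stress regulators, CHAC1 and STC2 were called higher by edgeR, while DESeq2 called 0 of the 5 (STC2 at adjusted p = 0.0516). CHAC1 (chromosome 15, 40952962 to 40956519), which degrades glutathione, held 2, 1 and 0 counts in the DMSO libraries and 21, 3 and 2 with dabrafenib, or 19.99, 5.25 and 5.18 CPM. Most of that rise lay in the first dabrafenib library. The ratio of summed counts was 11.9 (95% counting interval 3.65 to 61.5), adjusted p = 0.0067, and the call ended without dabrafenib replicate 1, where the fitted log2 difference of 2.10 is no bound. STC2 (chromosome 5, 173314713 to 173329503), a secreted glycoprotein of calcium and phosphate handling that stress induces, went from 164, 172 and 222 to 310.4, 562 and 204 CPM. Treated replicate 3 lay below the highest control, and the fitted difference was 0.97 ± 0.25 (adjusted p = 0.0417). Leaving out dabrafenib replicate 1, or any 1 DMSO library, ended this call as well (0.88 to 1.10). The mTORC1 inhibitors DDIT4 (0.22 ± 0.25) and SESN2 (0.60 ± 0.26) and the pseudokinase gene TRIB3 (-0.02 ± 0.57) were not called, SESN2 being called without dabrafenib replicate 2 (0.81).

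Transporters held 3 of the 7 calls, and these 3 genes encode the parts of 2 exchangers. SLC7A5 (chromosome 16, 87830023 to 87869488), the light chain of the large neutral amino acid exchanger LAT1, went from 107, 106 and 88.03 to 255, 238 and 207 CPM. Every treated library was above every control, and the difference was 1.22 ± 0.18 (adjusted p = 4.37e-05). SLC7A11 (chromosome 4, 138164097 to 138242349), the light chain of the cystine-glutamate exchanger, went from 54.2, 62.5 and 47.4 to 112, 119 and 98.3 CPM, a difference of 1.00 ± 0.19 (adjusted p = 0.00161). SLC3A2 (chromosome 11, 62856102 to 62888875), the heavy chain that both light chains need at the membrane, went from 36.4, 37.3 and 47.4 to 75.2, 119 and 56.9 CPM. Its groups did not overlap, with dabrafenib replicate 2 the highest, and it rose by 1.10 ± 0.25 (adjusted p = 0.00868). SLC7A5 and SLC7A11 were called in every alternative run, whereas SLC3A2 lost its call without DMSO replicate 1 or 2 (1.02 to 1.05). The cationic amino acid transporter SLC7A1 (0.44 ± 0.21), the neutral amino acid transporters SLC1A5 (0.17 ± 0.20) and SLC38A2 (-0.22 ± 0.18), and SLC1A4 (0.86 ± 0.31), which carries serine and alanine, were not called. Without dabrafenib replicate 2 SLC1A4 was called, at 1.15.

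Among the enzymes, ALDH1L2 (chromosome 12, 105019784 to 105084577), which oxidises formyl-tetrahydrofolate in mitochondria, went from 54.2, 45.4 and 32.2 to 105, 89.2 and 137 CPM. The groups were well apart, with a difference of 1.25 ± 0.22 (adjusted p = 0.00037) that was called in every alternative run. The other mitochondrial one-carbon genes, SHMT2 (0.68 ± 0.29), the serine hydroxymethyltransferase, and MTHFD2 (0.34 ± 0.17), the methylene-tetrahydrofolate dehydrogenase, were not called. Of 8 tested genes grouped as amino acid enzymes, PCK2 included, 0 were called by edgeR or DESeq2. At an unadjusted p under 0.05, 3 of them were higher. Asparagine synthetase, ASNS, went from 59.3, 73.6 and 66.02 to 120.0, 92.7 and 77.6 CPM with no overlap (0.60 ± 0.20, adjusted p = 0.103). PSAT1 of serine synthesis went from 32.2, 54.4 and 55.9 to 81.9, 80.5 and 67.3 CPM, also without overlap (0.75 ± 0.23, adjusted p = 0.0641). Both were called without dabrafenib replicate 2 or 3, ASNS at 0.67 to 0.72 and PSAT1 at 0.75 to 0.82. The other 6 lay between -0.08 for PYCR1, which makes proline, and 0.60 for PCK2, the mitochondrial phosphoenolpyruvate carboxykinase. XPOT, the tRNA export receptor, stood at 0.28 ± 0.28.

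**Figure D2:**
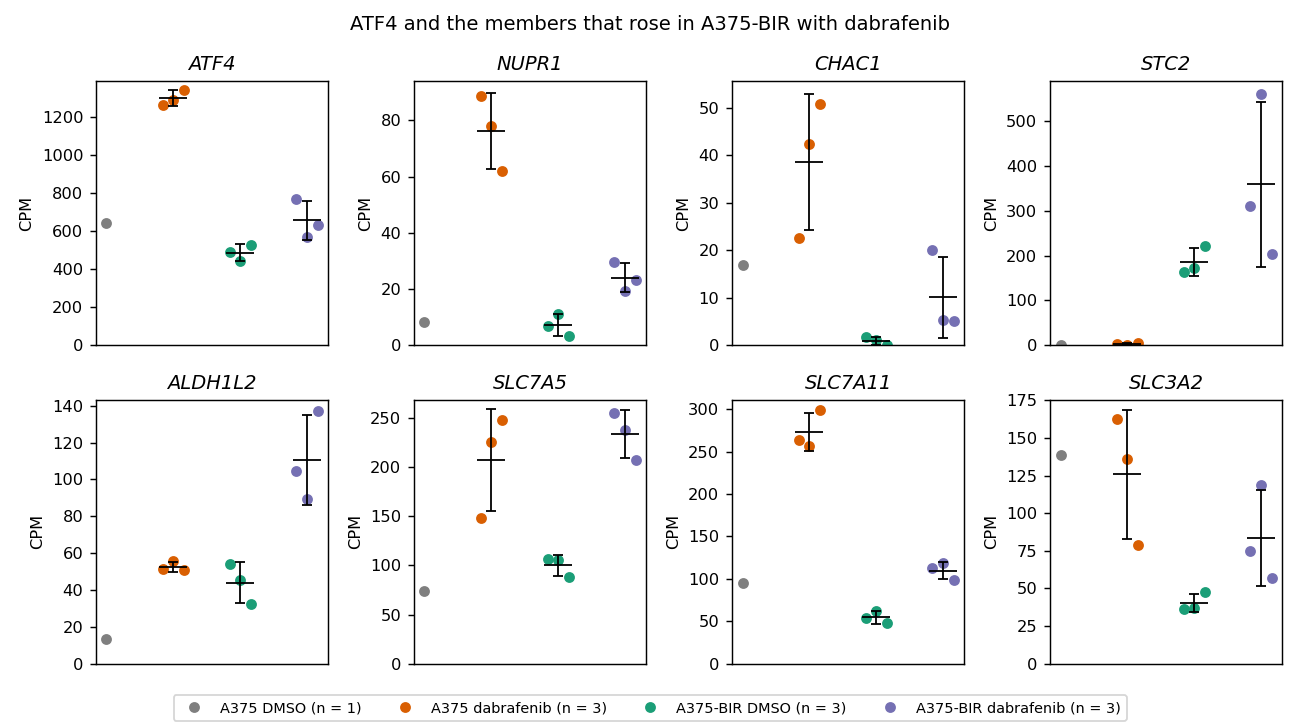
CPM of ATF4 and of the 7 genes that rose in A375-BIR with dabrafenib, by group, with 1 point per library and bars for mean and SD (none for A375 with DMSO, n = 1), each panel on its own axis from 0. In A375-BIR the treated and control points are apart for every gene shown except STC2, where treated replicate 3, at 204 CPM, lies below the highest control, at 222 CPM.

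The promoters of these genes were searched for the letters of the C/EBP-ATF element core. Binding of ATF4 was not measured. The 8-letter core searched was TGATGNAA, read on both strands in the 250 bases before and 50 after each RefSeq start (GRCh38.p14). The table of promoters held 26 of the 33 genes, some with more than 1 start, and gave no entry for NUPR1, SLC7A11, ALDH1L2, PYCR1, SHMT2, GPT2 and PSPH. Of the 26 genes 8 held the core (30.8%), against 4.46% of 27305 genes with a promoter in the table, and 5 of 26 (19.2%) against 3.89% when only the 250 bases before the start were read. Counted by promoter over the full window, 8 of 43 held it (18.6%), against 3.62% of 35116. The genes are listed as ATF4-linked, so these shares are a description. The 8 stretches of 30 bases are shown so that the cores can be compared, each 5′ to 3′ on the gene's own strand, with the core in capitals. SLC1A4, SLC3A2 and CHAC1 hold it on the opposite strand, where it reads TTNCATCA.

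ATF3, chr1:212565205-212565234: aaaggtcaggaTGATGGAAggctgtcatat
SLC1A4, chr2:64989381-64989410: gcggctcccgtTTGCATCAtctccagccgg
ASNS, chr7:97872458-97872487: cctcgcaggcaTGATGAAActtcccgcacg
SLC3A2, chr11:62881719-62881748: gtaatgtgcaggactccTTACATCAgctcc
SLC7A1, chr13:29595663-29595692: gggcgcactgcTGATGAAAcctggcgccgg
CHAC1, chr15:40953251-40953280: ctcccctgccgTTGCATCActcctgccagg
CEBPG, chr19:33374060-33374089: cgcgcggcgtcTGATGCAAcctgccggcaa
SLC1A5, chr19:46784893-46784922: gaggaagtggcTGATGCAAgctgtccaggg

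ASNS, SLC7A1 and SLC1A5 lie on the minus strand and the other 5 on the plus strand. The core begins 68 bases before the start in ASNS, 42 in CEBPG, 97 in SLC1A5, 191 in ATF3 and 209 in CHAC1. It spans the start in SLC1A4, and begins at base 8 after it in SLC7A1 and at base 38 in SLC3A2. The start meant is the RefSeq start of that promoter, which need not be the end of the gene's GENCODE span. In SLC3A2 the core (62881736 to 62881743) lies well inside that span (62856102 to 62888875). CEBPG and SLC1A5 hold the same 8 letters, and SLC1A4 and CHAC1 hold their reverse complement. ASNS and SLC7A1 share another form. Of the 8 genes with the core, CHAC1 and SLC3A2 rose in A375-BIR. Of the 18 genes with a promoter in the table and no core in the window, SLC7A5 and STC2 rose, and the other 3 that rose had no entry.

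The lines were then compared under the same drug, A375-BIR with dabrafenib against A375 with dabrafenib, again 3 libraries each with the same run stamp. Most of the stress factors and regulators stood lower in A375-BIR, while MTHFD2, ALDH1L2, ALDH18A1 and STC2 were among those that stood higher. Of the 31 genes 7 were called higher and 16 lower (74.2%), against 22.6% called higher and 20.2% lower among all genes (42.7% in either direction). The median difference was -0.67, against 0.043 over all genes. With a mean count of at least 20 required, 4 were called higher.

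**Figure D3:**
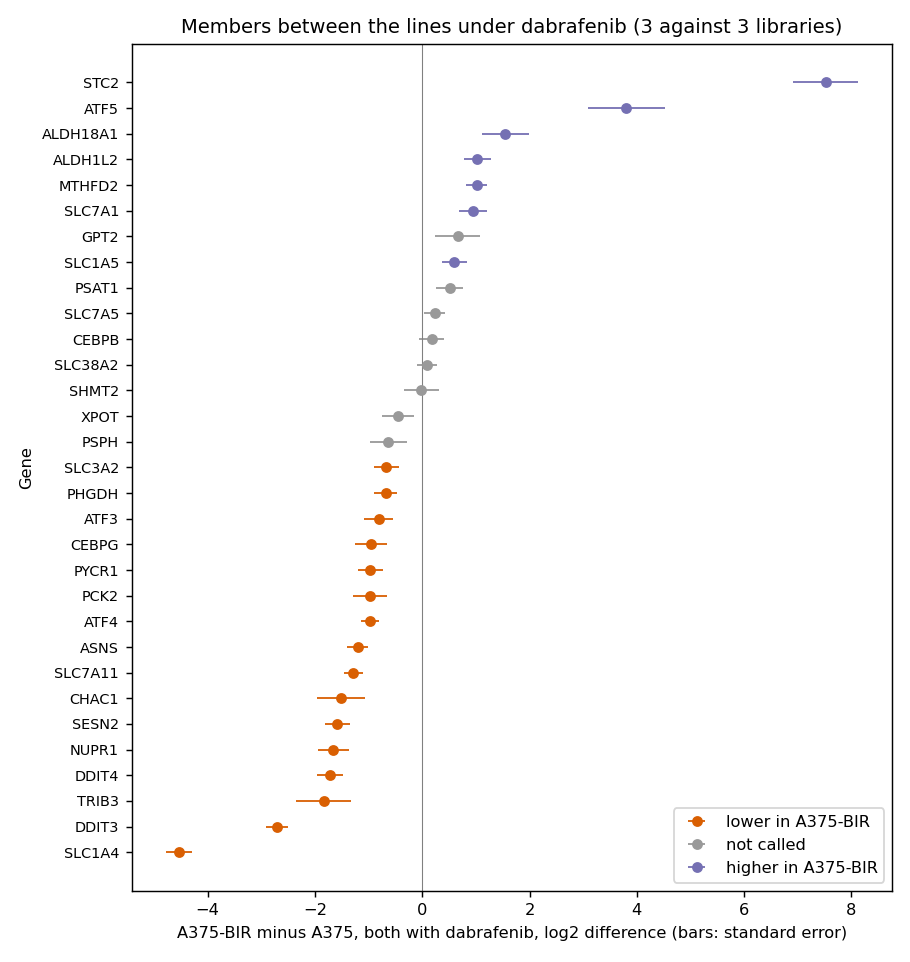
Log2 difference between A375-BIR and A375, both with dabrafenib, for the 31 tested genes in order of size, with standard errors (3 libraries against 3). SLC1A4 lies lowest at -4.53 and STC2 highest at a fitted 7.52, which rests on 2 counts in A375, as does the value of ATF5.

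ATF4 stood at 1260.0, 1290.0 and 1343 CPM in A375 with dabrafenib, about 2 times the A375-BIR level, with no overlap (difference -0.98 ± 0.17, adjusted p = 1.35e-05). DDIT3 (chromosome 12, 57516588 to 57521737) stood at 283, 368 and 378 CPM in A375 against 47.6, 55.98 and 54.3 CPM in A375-BIR. That is the largest gap among the transcription factors with over 3 counts in each line, at -2.70 ± 0.20 (adjusted p = 6.7e-14). NUPR1 was lower in A375-BIR by 1.66 on the log2 scale, from 88.7, 78.1 and 62.1 CPM in A375. CEBPG (-0.95) and ATF3 (-0.81) were called lower too, and CEBPB was not called (0.17 ± 0.24). CEBPG lost its call without A375 dabrafenib replicate 1 (-0.84), and ATF3 without A375 dabrafenib replicate 1 or 2 or A375-BIR dabrafenib replicate 1 (-0.76 to -0.50). ATF5 went the other way, with 29, 15 and 11 counts in A375-BIR and 1, 0 and 1 in A375, a ratio of 15.2 (95% counting interval 4.01 to 129).

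All 5 stress regulators were called between the lines. DDIT4 stood at 115, 152 and 152 CPM in A375 and 39.98, 54.2 and 28.5 CPM in A375-BIR (-1.71 ± 0.24). SESN2, an inhibitor of mTORC1 and leucine sensor, stood at 142, 163 and 152 against 69.5, 34.99 and 36.2 CPM (-1.58 ± 0.23). In both, every A375 library was above every A375-BIR library. CHAC1 was lower in A375-BIR by 1.51 and TRIB3 by 1.83. CHAC1 lost its call without A375 dabrafenib replicate 2 (-1.35) and TRIB3, whose A375 libraries held 19, 12 and 1 counts, without A375 dabrafenib replicate 1 (-1.37). STC2 held 1, 0 and 1 counts in the A375 libraries and 326, 321 and 79 in A375-BIR, a ratio of 201 (95% counting interval 55.4 to 1660.1).

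The transporters split. SLC1A4 (chromosome 2, 64988477 to 65023865) stood at 829, 939.6 and 841 CPM in A375 and 43.8, 17.5 and 51.8 CPM in A375-BIR. This difference of -4.53 ± 0.23 (adjusted p = 9.14e-18) was called in every alternative run. SLC7A11 stood at 264, 257 and 299 against 112, 119 and 98.3 CPM (-1.28 ± 0.18), again with no overlap. SLC3A2 was called lower in A375-BIR at -0.67, but the groups overlapped and the call ended without A375 dabrafenib replicate 1 or 2 or A375-BIR dabrafenib replicate 1 or 3 (-0.66 to -0.45). SLC7A1 was higher in A375-BIR (0.94 ± 0.26). SLC1A5 was called higher at 0.60, with overlapping groups, and lost the call without any A375 replicate or A375-BIR dabrafenib replicate 2 (0.29 to 0.64). SLC7A5, at 148, 225 and 248 CPM in A375, was not called (0.23 ± 0.19), nor was SLC38A2 (0.09 ± 0.19).

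Enzyme genes also differed in both directions. MTHFD2 stood at 129.9, 179 and 107 CPM in A375 and 248, 353 and 274 CPM in A375-BIR (1.02 ± 0.20, adjusted p = 6.11e-05), and ALDH1L2 was higher in A375-BIR by a like amount (1.02 ± 0.25). ALDH18A1, which commits glutamate to proline synthesis, was higher (1.55 ± 0.44). It held only 6, 5 and 2 counts in A375, and 31, 30 and 8 in A375-BIR. PYCR1, the last enzyme of that path, was lower (-0.97 ± 0.23). ASNS, at 210.3, 248 and 237 CPM in A375, was lower in A375-BIR by 1.20 (adjusted p = 3.74e-06). PHGDH, which starts serine synthesis, was lower (-0.68), as was PCK2 (-0.97), and the calls ended without A375 dabrafenib replicate 1 (-0.53) and replicate 3 (-0.82) respectively. The alanine transaminase gene GPT2 (0.66 ± 0.42), PSPH of serine synthesis (-0.63 ± 0.35), PSAT1 (0.51 ± 0.26), SHMT2 (-0.02 ± 0.32) and XPOT (-0.46 ± 0.30) were not called. GPT2, with 13, 5 and 1 counts in A375, was called without A375 dabrafenib replicate 1 (1.47) and PSPH without A375-BIR dabrafenib replicate 3 (-0.88).

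The response of A375 set 3 dabrafenib libraries against the lone DMSO library, which the fit gives the spread pooled over the other groups. Those groups were uneven by the chi-square over degrees of freedom between pairs of replicates. It was 1.09 to 2.45 in A375 with dabrafenib, 1.29 to 1.74 in A375-BIR with DMSO and 4.26 to 4.89 in A375-BIR with dabrafenib. Of the transcription factors 6 of 7 were called higher with dabrafenib, as were ASNS, PSAT1, PSPH and PCK2 and the light chains of both exchangers. Of the 31 genes 14 were called higher and 3 lower (54.8%), against 17.9% and 20.7% among all genes (38.6% in either direction), and the median was 1.02 against 0 over all genes. The 3 lower genes became 1 by DESeq2.

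ATF4 went from 639 to 1260.0, 1290.0 and 1343 CPM (1.02 ± 0.25). DDIT3 went from 108 to 283, 368 and 378 CPM (1.65 ± 0.24) and NUPR1 from 8.16 to 88.7, 78.1 and 62.1 CPM (3.25 ± 0.42). ATF3 (1.42), CEBPB (1.32) and CEBPG (2.29) rose as well. ATF5 held 11 counts with DMSO and 1, 0 and 1 with dabrafenib and was not called, at a ratio of 0.261 (95% counting interval 0.0281 to 1.19). Of the 5 stress regulators 0 were called by edgeR or DESeq2, and 1 was higher at an unadjusted p under 0.05. SESN2 stood at 173 and then 142, 163 and 152 CPM, TRIB3 at 27.00 and then 39.2, 26.8 and 5.64 CPM. CHAC1, from 16.95 to 22.7, 42.4 and 50.8 CPM, was called without dabrafenib replicate 1 (1.41).

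SLC7A11 went from 94.8 to 264, 257 and 299 CPM (1.51 ± 0.24) and SLC7A5 from 74.1 to 148, 225 and 248 CPM (1.44 ± 0.27). The heavy chain SLC3A2 was not called, at 139 CPM with DMSO and 163, 136 and 78.97 CPM with dabrafenib (-0.05 ± 0.28). PCK2, at 3.14 CPM with DMSO (5 counts), stood at 43.3, 40.2 and 67.7 CPM with dabrafenib (3.82 ± 0.53). ASNS (1.71), PSAT1 (1.19) and PSPH (1.04) rose, and PSPH lost its call without dabrafenib replicate 1 or 3 (0.92 to 0.93). PHGDH, the first enzyme of serine synthesis, was not called (0.04 ± 0.25, adjusted p = 0.928), and its groups overlapped. The mitochondrial one-carbon genes diverged. MTHFD2 (1.58 ± 0.29) and ALDH1L2 (2.00 ± 0.40) rose, while SHMT2 fell from 102 to 28.9, 42.4 and 33.8 CPM (-1.53 ± 0.31, adjusted p = 0.000186). GPT2 (-1.39) and PYCR1 (-0.72) were called lower, GPT2 not without dabrafenib replicate 2 (-1.09) and PYCR1 not without replicate 1 (-0.63). XPOT was not called (0.86 ± 0.36) and was called without replicate 1 or 3 (0.96 to 1.16).

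The responses of both lines share no library. Of the 7 genes that rose in A375-BIR, 4 also rose in A375, NUPR1, SLC7A5, SLC7A11 and ALDH1L2, which is 4 of the 14 that rose there. Among all genes, 54 of the 139 that rose in A375-BIR rose in A375 and 12 fell.

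**Figure D4:**
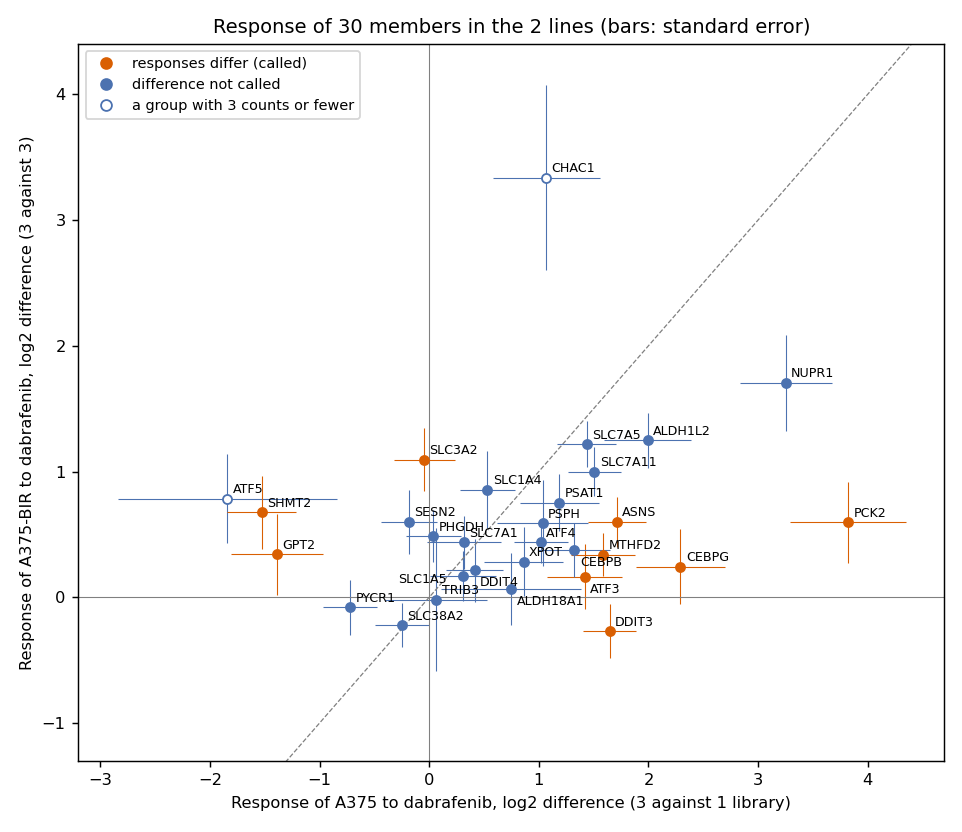
Log2 response to dabrafenib in A375 (horizontal) and A375-BIR (vertical) of 30 genes, with standard errors and a dashed line of equal response. STC2 is left out because both A375 groups hold 3 counts or fewer. Orange marks the 9 genes whose responses differ by the test of the difference, of which PCK2, DDIT3, CEBPG, MTHFD2, ASNS and ATF3 lie to the right of the line and SLC3A2, SHMT2 and GPT2 to its left.

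The difference between the responses was tested in the same fit, as the response of A375-BIR minus that of A375. Of the 31 genes 3 were called higher and 6 lower (29.03%), against 12.7% and 9.87% among all genes (22.6% in either direction). Of the 3 higher, 1 was left without A375 dabrafenib replicate 2, while 6 were called without A375-BIR dabrafenib replicate 2 and 5 without its replicate 3. For DDIT3, which rose in A375 and was not called in A375-BIR, the difference was -1.92 (adjusted p = 4.39e-05). It was -3.23 for PCK2, -2.05 for CEBPG, -1.24 for MTHFD2, -1.11 for ASNS and -1.25 for ATF3. SHMT2 (2.20), GPT2 (1.73) and SLC3A2 (1.14) had the higher response in A375-BIR. For ATF4 the difference was not called (-0.58 ± 0.29, adjusted p = 0.15), nor for SLC7A5 (-0.22 ± 0.32), SLC7A11 (-0.51 ± 0.31), ALDH1L2 (-0.75 ± 0.46) or NUPR1 (-1.55 ± 0.61). The calls of ATF3 (-1.20 to -0.94), GPT2 (1.36 to 1.43), MTHFD2 (-1.02) and SLC3A2 (0.98 to 1.15) ended without single libraries. These were A375 dabrafenib replicate 2 for all 4, together with A375 dabrafenib replicate 1, A375-BIR dabrafenib replicate 1 and A375-BIR DMSO replicates 1 and 3 for ATF3, A375-BIR dabrafenib replicate 1 for GPT2, and A375 dabrafenib replicate 3 and A375-BIR DMSO replicates 1 and 2 for SLC3A2. In turn NUPR1 was called without A375-BIR dabrafenib replicate 1 or DMSO replicate 3 (-1.81 to -1.76), CHAC1 and SESN2 without A375-BIR dabrafenib replicate 2 or 3 (fitted 2.49 to 2.61 and 0.92 to 0.99), and CEBPB (-1.36) and ATF5 (fitted 2.66) without A375-BIR dabrafenib replicate 2.

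In DMSO the lines already differed in these genes, again against the single A375 library. Of the 31 genes 10 were called higher in A375-BIR and 12 lower (71.0%), against 25.1% and 26.7% among all genes (51.8% in either direction). SLC1A4 stood at 603 CPM in A375 and 26.3, 20.2 and 11.8 CPM in A375-BIR (-4.86 ± 0.27). SESN2 stood at 173 against 33.05, 30.2 and 38.9 CPM (-2.37 ± 0.26), SLC3A2 at 139 against 36.4, 37.3 and 47.4 CPM (-1.81 ± 0.28), and SHMT2 at 102 against 17.8, 19.2 and 32.2 CPM (-2.22 ± 0.28). MTHFD2, at 47.7 CPM in A375 and 201, 250.0 and 240.4 CPM in A375-BIR, went the other way (2.26 ± 0.28). STC2 held 1 count in A375 and 194, 171 and 131 in A375-BIR, a ratio of 286 (95% counting interval 51.1 to 11315). ATF4 was not called, at -0.40 ± 0.23. Calls of CEBPG, PSAT1, SLC1A5 and SLC7A1 ended without 1 or 2 of the A375-BIR DMSO replicates, namely 3 for CEBPG (0.84) and SLC7A1 (0.73), 2 or 3 for PSAT1 (0.80 to 0.84) and 1 or 2 for SLC1A5 (0.73), and ATF5 was called without replicate 1 (1.58).

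Upstream of ATF4 stand the eIF2 kinases, eIF2 and its exchange factor eIF2B, and the phosphatase subunits that reverse the phosphorylation. Of 13 tested genes of this list of 14, edgeR and DESeq2 called 0 in the response of A375-BIR, and at an unadjusted p under 0.05 2 were higher and 1 lower. In the response of A375, 3 were higher and 1 lower (30.8%, against 38.6% of all genes). PPP1R15A, the stress-induced phosphatase subunit and an ATF4 and CHOP target, rose there from 99.2 to 219, 185 and 203 CPM (1.03 ± 0.25). In A375-BIR it stood at 0.00 ± 0.18, a tested difference of -1.02 ± 0.31 (adjusted p = 0.0153). This difference was not called without A375 dabrafenib replicate 1 (-0.95), by DESeq2 (-1.01) or with the replicate block (-0.90). EIF2B1 rose in A375 as well (1.70 ± 0.38). Between the lines under dabrafenib 2 were higher in A375-BIR and 2 lower (30.8%, against 42.7% of all genes). EIF2AK2, the RNA-sensing kinase PKR, stood at 84.6, 82.6 and 107 CPM in A375 and 295, 306 and 311 CPM in A375-BIR (1.78 ± 0.19). EIF2AK4, the amino acid-sensing kinase GCN2, stood at 194, 212 and 175 against 103, 83.97 and 137 CPM (-0.89 ± 0.20), the reverse of PKR. EIF2AK3, the kinase PERK, held 49 counts in all and was not tested.

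A further 29 ATF4 targets outside the 33 were listed, of which 27 were tested. In A375-BIR 2 rose with dabrafenib and 0 fell by edgeR, while 8 were higher and 1 lower at an unadjusted p under 0.05, and DESeq2 called 0. They were AARS1, the alanyl-tRNA synthetase (0.67 ± 0.18), and SLC38A1, a glutamine transporter (0.73 ± 0.18). Leaving out DMSO replicate 1 or 3 ended both calls. AARS1 lost it too when dabrafenib replicate 1 or the remaining DMSO library was left out (0.63 to 0.70), and SLC38A1 without dabrafenib replicate 3 (0.57 to 0.74). In A375 8 rose and 4 fell (44.4%, against 38.6% of all genes), among them MARS1, the methionyl-tRNA synthetase (1.87 ± 0.27), MAP1LC3B, an autophagosome protein (1.75 ± 0.32), and NIBAN1, a stress-induced protein (1.31 ± 0.23), which rose, and GDF15, a stress-induced cytokine, which fell from 5739 to 1144, 1388 and 1461 CPM (-2.11 ± 0.37). Under dabrafenib 3 stood higher and 12 lower in A375-BIR than in A375 (55.6%, against 42.7% of all genes). GDF15 was at 142, 528 and 269 CPM in A375-BIR (-2.10 ± 0.31 against A375).

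Aminoacyl-tRNA synthetases, which charge tRNAs with amino acids, were followed in 2 lists, those listed as ATF4 targets and others. Of the 12 listed as targets, 3 rose and 1 fell in A375 with dabrafenib (33.3%, median 0.32), and of the 8 others 0 rose and 6 fell (75%, median -1.43). Among all genes 17.9% were called higher and 20.7% lower there, 38.6% in either direction. FARSB (-2.22), VARS1 (-2.04), FARSA (-1.97) and KARS1 (-1.83), for phenylalanine, valine, phenylalanine and lysine, had the largest falls. MARS1 was joined in rising by IARS1 (0.98) and YARS1 (0.71), while TARS1, listed as a target, fell (-0.91). IARS1 lost its call without dabrafenib replicate 2 (0.87) and YARS1 without replicate 3 (0.57). By DESeq2 neither IARS1 nor YARS1 was called, and with the replicate block IARS1 was not (0.77). DESeq2 called 1 of the 12 higher and 1 lower in A375, and of the 8 others 0 higher and 5 lower. All of these rest on the single A375 DMSO library. Between the lines under dabrafenib, where all libraries share 1 run stamp, 2 of the 12 stood higher in A375-BIR and 5 lower (58.3%, median -0.38). Of the 8 others 3 stood higher and 0 lower (37.5%, median 0.38), against 42.7% of all genes called. WARS1 (-1.62 ± 0.24), AARS1 (-1.22 ± 0.17) and MARS1 (-1.07 ± 0.20) were lower in A375-BIR, and TARS1 (1.41 ± 0.18) and KARS1 (1.35 ± 0.23) higher. In the response of A375-BIR 1 of the 12, AARS1, and 0 of the 8 were called. At an unadjusted p under 0.05, 5 of the 12 were higher and of the 8 others 1 was higher and 2 lower, and DESeq2 called 0 in both lists. No test compared the 2 lists.

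**Figure D5:**
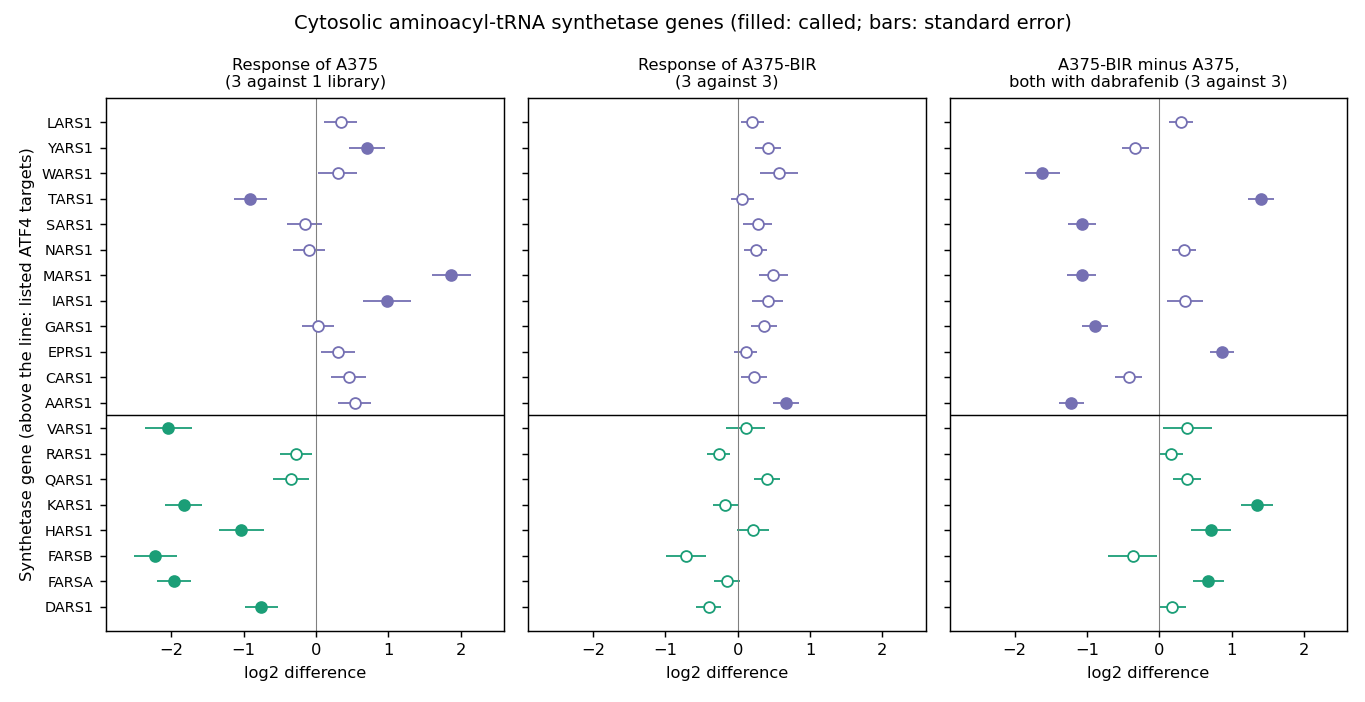
Log2 differences with standard errors of 12 synthetase genes listed as ATF4 targets (purple, above the line) and 8 others (green, below), for the response of A375, the response of A375-BIR, and A375-BIR against A375 under dabrafenib. Filled points were called. In the left panel 6 of the 8 green points are filled and all 8 lie left of 0, while 9 of the 12 purple points lie right of it.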

How the data were processed

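Each file the authors deposited holds the raw counts of 1 library, gene by gene; its 5 closing lines, for reads given to no gene, were left out. Per the labels' protocols, 3′ tag libraries (QuantSeq FWD) were made from 250 ng of RNA and read as single ends of 100 bases. Per the submitters' processing notes the build is hg38 (aligner, counting program, annotation and strand setting: not given in the sources used here). Of 12 files, 10 list human genes; 2 list 31053 mouse genes and were used in no comparison. Symbols were found for 32807 of 33694 identifiers; positions are from GENCODE 29.

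Genes were kept by filterByExpr (minimum count 10), which left 10236, and the libraries were scaled by TMM. The model was edgeR 4.0.16's quasi-likelihood fit (glmQLFit, robust, 1 coefficient per group, 6 residual degrees of freedom) in R 4.3.3. The common biological coefficient of variation was 0.136. Standard errors are the difference divided by the square root of F. Where a group held 1 to 3 counts, the ratio of summed counts is given with an exact 95% interval, which covers counting error only. Alternatives were RLE scaling, DESeq2 1.42.0, other filters, restricted fits, a replicate block and leaving out libraries. The procedure was tested on simulated data for the response of A375-BIR only. A gene had the same spread in every simulated group, and no run stamp effect was added. Comparisons with the A375 DMSO library were not tested in this way. Detailed values are given for ATF4 and the genes called in at least 1 comparison, and up to 4 called genes per further list. The genes, lists and tests were chosen with earlier results of these data known.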

Additional observations from a re-analysis of the deposited data

Results flagged for a closer look

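In 9 genes the response to dabrafenib differed between the lines by the test of the difference, given as the response of A375-BIR minus that of A375 on the log2 scale. The difference was -1.25 for ATF3, -1.92 for DDIT3, -2.05 for CEBPG, -1.11 for ASNS, -3.23 for PCK2 and -1.24 for MTHFD2. It was 1.73 for GPT2, 2.20 for SHMT2 and 1.14 for SLC3A2. All 9 rest on the A375 DMSO library, 1 library of another run stamp, so that run stamp and response cannot be told apart. DDIT3, CEBPG, ASNS and SHMT2 were called under all 15 alternatives for this comparison, and PCK2 under the 14 that tested it.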

How the results depend on the processing

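No gene called among the 31 changed direction under any alternative run. Of the 7 called in the response of A375-BIR 3 were called under all 14 alternatives, of 17 in the response of A375 12 under all 9, of 22 between the lines in DMSO 13 under all 9, of 23 in dabrafenib 12 under all 14, and of 9 differences between responses 4 under all 15. A further 2, 4, 3 and 1 in the last 4 comparisons were called under each alternative that tested them, but low counts kept them out of at least 1. By DESeq2 the genes called numbered 106 in the response of A375-BIR (252 in edgeR), 2485 in that of A375 (3948) and 1153 in the difference (2313). Of the 31 genes DESeq2 called 1 lower in A375, 6 higher between the lines in DMSO and 1 higher in the difference. A fit of the 2 A375-BIR groups alone called 125 genes. With a mean count of at least 20, 4 of the 31 were higher in A375-BIR under dabrafenib, where fewer genes were tested. Leaving out 1 library gave 106 to 558 genes in the response of A375-BIR and 4 to 12 of the 31 higher, and 1 to 6 higher in the difference. These were 106, 140 and 107 genes without A375-BIR DMSO replicates 1, 2 and 3, and 558 without dabrafenib replicate 2. HSPA5, which was not called between the lines in dabrafenib, was called at -0.49 without A375-BIR dabrafenib replicate 2 and stood at 0.28 without replicate 3. The promoter core was found in 5 genes with the 250 bases before the start. The cause of the DESeq2, restricted and left-out values was not tested.

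No pairing by replicate number was seen: 1 of 9 same-numbered pairs had a correlation of deviations over 0.1 (range -0.22 to 0.15). Of 9 compared, 3 correlated best with their own number. With so few libraries per group these values cannot exclude pairing. With the replicate block, 239, 3296, 4579, 4292 and 1750 genes were called in the responses of A375-BIR and A375, between the lines in DMSO and in dabrafenib, and in the difference. Of the 31 genes, 1 was then called lower in A375 and 6 higher between the lines in DMSO.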

Other observations

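The other arms of the unfolded protein response, run by ATF6 and XBP1, raise chaperones of the endoplasmic reticulum and its degradation machinery. Of 16 such genes edgeR and DESeq2 called 0 in the response of A375-BIR, and 1 was lower at an unadjusted p under 0.05. In the response of A375 4 rose and 6 fell, against 17.9% of all genes called higher and 20.7% lower. The calcium-binding chaperone CALR went from 554 to 202, 272 and 231 CPM (-1.24 ± 0.22), and the disulfide isomerase PDIA6 (-1.55 ± 0.26) and SDF2L1 (-1.68 ± 0.28) fell too. HERPUD1 (1.42 ± 0.39), of the degradation machinery, rose. The call of DNAJC3, which rose in A375 (0.77 ± 0.25), ended without dabrafenib replicate 1 (0.55). HSPA5, the chaperone BiP, was called in neither line, but without A375-BIR dabrafenib replicate 2 it was called lower in A375-BIR, at -1.23 against -0.67 with it. With no filter on low counts it was called lower in both lines, at -0.70 in A375-BIR and -0.64 in A375.

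Of 5 genes linked to CHOP, 3 rose in A375 with dabrafenib and 0 fell (60%, against 38.6% of all genes called in either direction): the oxidase ERO1A (1.66 ± 0.33), BBC3, which encodes the death protein PUMA (1.35 ± 0.28), and the death receptor TNFRSF10B (1.07 ± 0.40). TNFRSF10B lost its call without dabrafenib replicate 1 or 2 (0.74 to 1.11), by DESeq2 (1.03) and with the replicate block (0.99). DESeq2 called 2 of the 5 higher in A375 and 0 lower. In A375-BIR 0 of the 5 were called by edgeR or DESeq2 and 0 had an unadjusted p under 0.05, and the difference between responses was called for ERO1A (-1.58 ± 0.38) and BBC3 (-1.31 ± 0.33). Of 4 tested cytosolic one-carbon enzymes, TYMS (-0.83 ± 0.30) and MTHFD1 (-1.07 ± 0.38) fell in A375 (50%, against 20.7% of all genes called lower). TYMS lost its call without dabrafenib replicate 3 or 1 (-0.92 to -0.63) and MTHFD1 without replicate 2 (-0.72). DESeq2 called 0 of these 4 enzymes in A375.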
